A study of Mus musculus with 94 samples.

Results

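The genes of insulin-like growth factor 1, its receptors and its binding proteins (*Igf1*, *Igf1r*, *Igf2r*, *Igfbp2* to *Igfbp7*) were examined in single primary PV-ADSCs. This is the authors' name, short for mesenchymal stem cells of perivascular fat, for cells sorted from the fat around the thoracic aorta. The genes were taken by name, and all 9 had a row among the 16069 genes of the table. *Igfbp1* was not analysed here. The cells came from c57/bl mice aged 8 weeks, which had received no treatment named in the labels, and were sorted as CD144-/CD45-/CD29+/Sca1+ after collagenase digestion without culture. Each cell gave a full-length cDNA library, and 85 of the 94 cells of the series were in the table, while the other 9 were not analysed here. Since the animal behind each cell is not given, the cells count as 1 sample, and the comparisons below describe these cells without a test.

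IGF1 is a secreted growth factor that acts on cells which carry its receptor, a tyrosine kinase encoded by *Igf1r* that signals through the PI3K-Akt and Ras-MAPK arms. *Igf2r* encodes a receptor without a kinase, which carries IGF2 and lysosomal enzymes tagged with mannose 6-phosphate into the cell. The binding proteins hold IGFs in the extracellular space and either limit or prolong their action, and IGFBP7 binds IGFs more weakly than the others. In adipose tissue, stromal cells and adipocytes are both known sources of IGF1.

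The cells were parted by *Dcn*, the gene of the matrix proteoglycan decorin, into 58 stromal cells with a deposited value of at least 1000 and 27 other cells below it. The values nearest to the threshold were 269 outside and 6521 inside, the latter in the stromal cell numbered 50. The names were checked against marker genes counted where they reached 100 recovered reads, which are the whole reads behind the normalized values. Of the 7 stromal markers, such as *Pdgfra* and *Col1a1*, stromal cells held a median of 6, whereas every other cell held 0. The range in stromal cells was 0 to 7, and 57 of the 58 held at least 1. Summed over these markers, reads ranged from 11 to 183874 in stromal cells and from 0 to 72 in the others. Of 15 endothelial markers, 24 of the 27 other cells held at least 3, compared with 1 stromal cell, although CD144, the product of *Cdh5*, had been gated out. *Cdh5* itself was above 0 in 23 of the other cells. Summed endothelial reads ranged from 0 to 43725 in the other cells and from 0 to 16268 in stromal cells. Of 6 mural markers with a row, no cell held more than 1, and 11 stromal and 5 other cells held 1. Mesothelial markers were found in 3 stromal cells, 2 of which held at least 4 of the 5 and were kept in the stromal group. Immune markers (2 with a row) were found in 3 stromal cells and adipocyte markers (1 with a row) in 1. None of the mesothelial, immune and adipocyte markers was found in the other cells. The remaining 3 other cells, those with fewer than 3 endothelial markers, had between 285 and 405 genes above 0. Depth was alike in both groups, with a median of 2963854 recovered reads in stromal cells and 2714449 in the others (range over all cells, 1146945 to 4776510). Genes per cell were not, with medians of 2813 and 1416. The part of this difference in the results below was not tested. The stromal cell numbered 50 stood apart, since its *Dcn* value of 6521 came from 69 reads. Other cells held up to 248 *Dcn* reads, so by reads it lay within their range. Results were also computed without the cell numbered 50. The stromal cell numbered 34 held both marker classes and carried 509 *Igf1* reads and 4891 *Igfbp7* reads.

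The promoter sequences of *Igf1* and *Igfbp7* and of *Igfbp4* and *Igfbp5* are shown because these pairs had the highest correlations of level across stromal cells among the members, as described further on. Each is the stretch of 250 bases before the transcription start on the gene's own strand, taken from RefSeq on GRCm38.p6, which is another build than the mm9 of the deposited table. The windows lie at chr10:87860861-87861110 (plus strand, *Igf1*), chr5:77408046-77408295 (minus strand, *Igfbp7*), chr11:99040994-99041243 (plus strand, *Igfbp4*) and chr1:72874866-72875115 (minus strand, *Igfbp5*). Capitals mark matches on either strand to the letters of the TATA box (TATAAA), to those of the GC box (GGGCGG) and to CCAAT, and no matches overlapped.
Igf1: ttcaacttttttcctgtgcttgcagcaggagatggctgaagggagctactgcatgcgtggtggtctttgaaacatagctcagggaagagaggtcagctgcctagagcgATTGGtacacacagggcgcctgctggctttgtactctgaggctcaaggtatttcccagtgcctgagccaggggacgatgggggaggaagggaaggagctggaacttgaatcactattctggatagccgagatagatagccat
Igfbp7: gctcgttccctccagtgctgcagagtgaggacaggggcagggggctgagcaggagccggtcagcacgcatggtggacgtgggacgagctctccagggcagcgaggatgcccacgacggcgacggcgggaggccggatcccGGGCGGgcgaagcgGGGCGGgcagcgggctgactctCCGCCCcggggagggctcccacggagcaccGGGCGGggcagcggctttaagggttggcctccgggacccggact
Igfbp4: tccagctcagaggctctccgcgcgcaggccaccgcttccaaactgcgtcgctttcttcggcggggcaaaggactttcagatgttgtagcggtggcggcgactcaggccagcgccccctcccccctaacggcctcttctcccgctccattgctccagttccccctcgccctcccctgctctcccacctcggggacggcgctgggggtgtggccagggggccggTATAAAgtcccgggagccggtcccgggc
Igfbp5: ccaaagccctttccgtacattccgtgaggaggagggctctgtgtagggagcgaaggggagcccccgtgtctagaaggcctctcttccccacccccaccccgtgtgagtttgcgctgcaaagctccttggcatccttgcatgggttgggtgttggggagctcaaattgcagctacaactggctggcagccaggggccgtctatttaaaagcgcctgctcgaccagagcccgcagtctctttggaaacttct
The *Igfbp4* window held TATAAA at 28 to 23 bases before the start, a motif found in 12.4% of the 32851 windows of the table. The *Igfbp7* window held 4 copies of GGGCGG, which was found at least once in 32.7% of all windows. In the *Igf1* window, CCAAT occurred once on the opposite strand (33.8% of all windows), and the *Igfbp5* window held none of the 3 motifs. The GC content was 52.8% for *Igf1*, 74% for *Igfbp7*, 69.2% for *Igfbp4* and 58.8% for *Igfbp5*, compared with a median of 52.4% over all windows. Within both pairs the windows thus differed in the motifs they held. These matches describe letters only and were not tied to any measurement of binding.

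*Igf1*, the ligand, was above 0 in 48 of 58 stromal cells (82.8%, exact Clopper-Pearson 95% interval 70.6% to 91.4%) and in 3 of 27 other cells (11.1%, interval 2.35% to 29.2%). Counting error alone enters these intervals, and the spread between animals does not. In stromal cells the median deposited value of *Igf1* was 1142 (range, 0 to 13853), and 44 cells held at least 100 reads. In the 3 other cells the *Igf1* values were 5415, 8.41 and 6.55, which came from 5635, 4 and 4 reads. A single other cell thus carried *Igf1* at the level of stromal cells. The mean of log2(value + 1) was 8.39 ± 4.47 (SD, n = 58 cells) in stromal cells and 0.69 ± 2.48 (SD, n = 27 cells) in the others. *Igf2*, the second ligand, was above 0 in 1 stromal and 1 other cell, each with at least 100 reads.

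Both receptor genes were found in a minority of the cells. *Igf1r* was above 0 in 25 stromal cells (43.1%, interval 30.2% to 56.8%) and 4 other cells (14.8%, interval 4.19% to 33.7%). At 100 reads, these numbers were 16 and 3. The median *Igf1r* value was 0 in both groups, and the highest values were 2785 and 522. The other cells with *Igf1r* had values of 522, 365, 278 and 3.86, all within the stromal range. *Igf2r* was above 0 in 22 stromal cells (37.9%, interval 25.5% to 51.6%) and 2 other cells (7.41%, interval 0.910% to 24.3%), and its highest value, 2690, was in an other cell. The mean of log2(value + 1) was 3.17 ± 3.99 and 1.04 ± 2.75 for *Igf1r* and 3.16 ± 4.19 and 0.60 ± 2.34 for *Igf2r* in stromal and other cells. The SD exceeded the mean for both receptors in both groups.

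Of the binding proteins, *Igfbp4* and *Igfbp6* were the most widespread in stromal cells. *Igfbp4*, whose product is cleaved by the protease PAPP-A, was above 0 in 53 stromal cells (91.4%, interval 81% to 97.1%), with values from 0 to 20165 and a median of 3050. The 5 other cells above 0 for *Igfbp4* had values of at most 6.94, from 4 to 7 reads each. At 10 reads, *Igfbp4* was thus found in 50 stromal cells and in 0 other cells. By counting error, up to 11.1% of other cells (limit of 3 cells) or 12.8% (exact interval) could hold as many reads of it. For *Igfbp4* the mean of log2(value + 1) was 10.19 ± 3.91 in stromal cells and 0.48 ± 1.04 in the others.

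*Igfbp6*, whose product prefers IGF2 over IGF1, was above 0 in 56 stromal cells (96.6%, interval 88.1% to 99.6%) and also in 21 other cells (77.8%, interval 57.7% to 91.4%). Levels differed more than these shares. The median value of *Igfbp6* was 3329 in stromal cells (range, 0 to 206994) and 23.8 in the others (range, 0 to 387), and the median reads were 5448 and 8. At least 100 reads were found in 47 stromal cells (81%) and 1 other cell (3.70%). For *Igfbp6* the mean of log2(value + 1) was 10.82 ± 3.99 in stromal cells and 3.96 ± 2.75 in the others. Most other cells thus held *Igfbp6* at a low number of reads. The value of 206994 came from 5616 reads in the cell numbered 21, whereas the most reads of *Igfbp6*, 23925 in the cell numbered 26, gave a value of 10341.

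*Igfbp5*, which encodes a binding protein that also attaches to extracellular matrix, divided the stromal cells. It was above 0 in 36 of them (62.1%, interval 48.4% to 74.5%), with a median value of 251 and a highest value of 49205, whereas 22 cells were at 0. Among the others it was above 0 in 6 cells (22.2%, interval 8.62% to 42.3%), all with fewer than 100 reads and values of at most 43.6. The mean of log2(value + 1) for *Igfbp5* was 6.55 ± 5.91 and 0.84 ± 1.69.

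*Igfbp3*, the gene of the main IGF carrier in blood, was found in 11 stromal cells (19%, interval 9.87% to 31.4%) and in 0 other cells. That 0 allows a share of up to 11.1% by the limit of 3 cells and 12.8% by the exact interval. All 11 cells held at least 100 reads, with values from 152 to 2448 and a median of 990, so that the gene was either at 0 or well above it. For *Igfbp3* the mean of log2(value + 1) in stromal cells was 1.85 ± 3.89. *Igfbp2*, whose neighbouring coding gene on chromosome 1 is *Igfbp5*, was above 0 in a single stromal cell, numbered 29, with 521 reads. The same cell held 1033 reads of *Igfbp3*. In the 27 other cells *Igfbp2* was detected in 0 cells, which allows a share of up to 11.1% or 12.8% by the same 2 limits.

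*Igfbp7*, also expressed by vascular endothelium, was the member found in both groups at a high level. It was above 0 in 48 stromal cells (82.8%, interval 70.6% to 91.4%) and 18 other cells (66.7%, interval 46% to 83.5%). The median values of *Igfbp7* were 3689 and 3852, with highest values of 22851 and 14010, and the groups overlapped throughout. For *Igfbp7* the mean of log2(value + 1) was 9.64 ± 4.82 in stromal cells and 8.21 ± 5.96 in the others. At 100 reads it was found in 46 stromal and 18 other cells, and the lowest number above 0 in an other cell was 1485 reads. All of these 18 were among the 24 other cells with at least 3 endothelial markers, while the 3 cells with fewer held 0 reads of *Igfbp7*. The exons of *Igfbp7* share 85 bases with those of *Polr2b* on the opposite strand. As the sources do not state whether strand was used in counting, reads there cannot be told apart. *Polr2b* was above 0 in 13 stromal cells and 1 other cell.

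**Figure D1:**
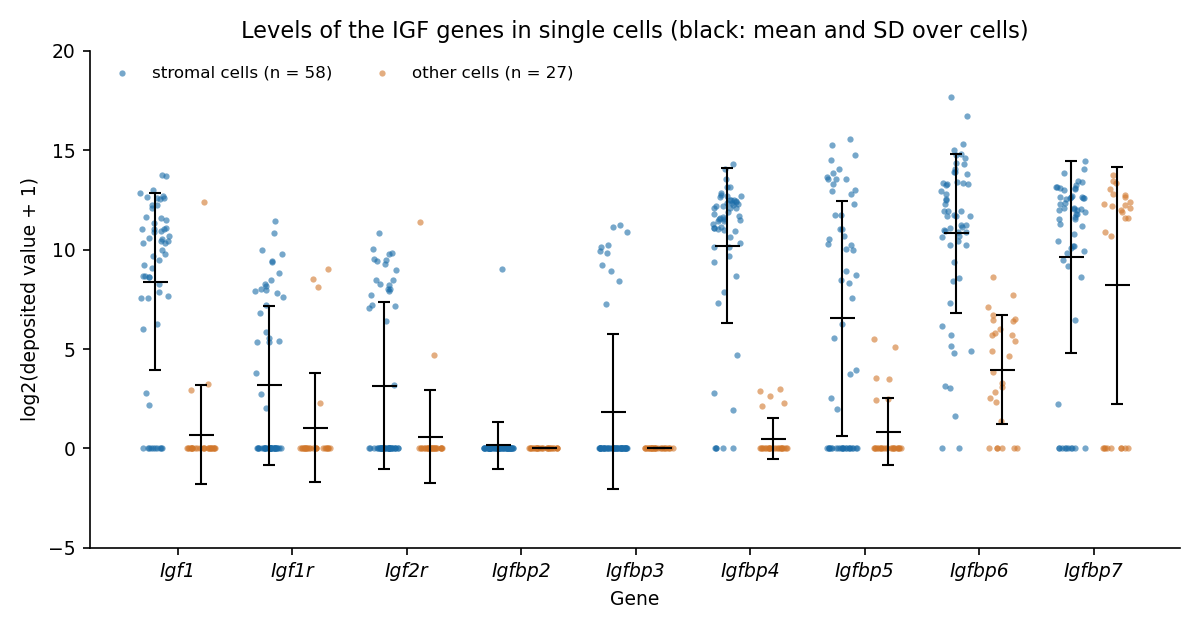
Level of each IGF gene in single cells, as log2(deposited value + 1) on the y axis, for 58 stromal cells (blue) and 27 other cells (orange), where each point is a cell and black lines are the mean and SD over cells. *Igf1*, *Igfbp4* and *Igfbp6* have stromal means of 8.39, 10.19 and 10.82, and *Igfbp7* is the gene whose points lie at the same height in both groups.

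The plot of levels shows many points at 0 beside a cloud of high values for most genes, which is why the SDs are wide. The share of cells was therefore also counted at 10 and at 100 reads. In stromal cells the shares of most genes moved little with the level, for example from 82.8% to 79.3% for *Igfbp7* at 100 reads. *Igf1r* (from 25 to 16 cells) and *Igfbp6* (from 56 to 47 cells) moved most among them. In the other cells, *Igf1*, *Igfbp4*, *Igfbp5* and *Igfbp6* lost most of their share and *Igfbp7* lost none.

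**Figure D2:**
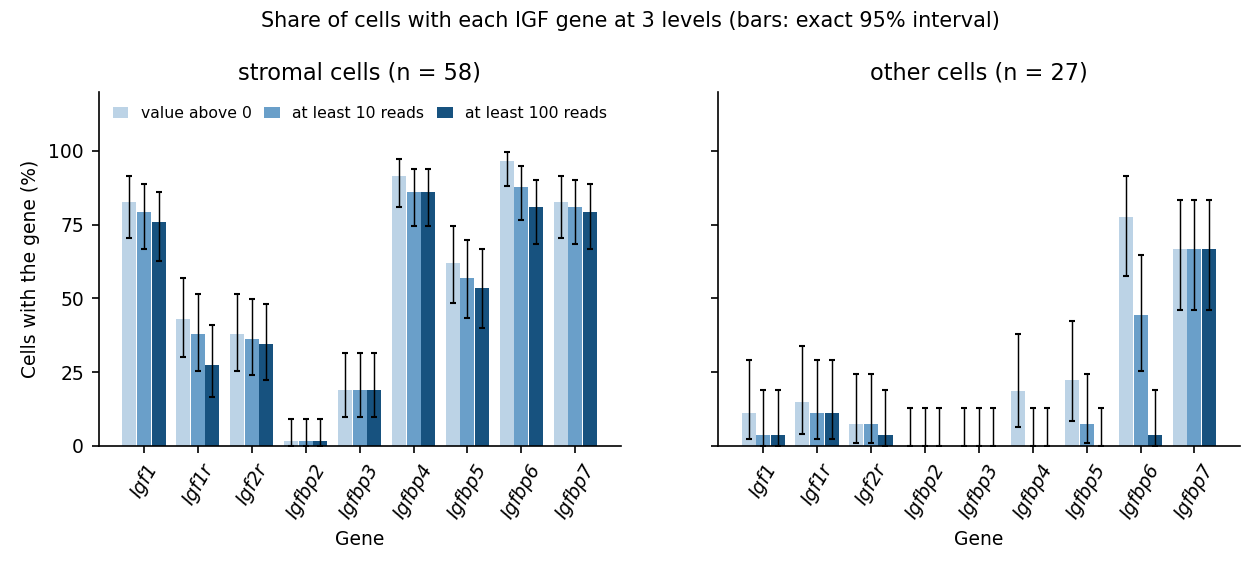
Share of cells (y axis, percent) with each IGF gene in stromal cells (left, n = 58) and other cells (right, n = 27), counted at a value above 0, at least 10 reads and at least 100 reads, where black lines are exact 95% intervals. The share of other cells with *Igfbp6* goes from 77.8% to 44.4% and 3.70%, whereas that with *Igfbp7* stays at 66.7%.

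The difference between the groups was next set against all genes. A gene was called past the fold where its mean of log2(value + 1) differed by at least 2. Among 11478 genes that had values in 3 cells or more, 1883 were past the fold toward stromal cells (16.4% of genes) and 125 toward the others (1.09%). Of the IGF genes, 8 met that minimum, 6 of which were past the fold toward stromal cells and 0 toward the others. Their median difference was 4.14, and that of all genes was 0.64. All 8 were above 0 in at least 10 cells. Among all genes with that many cells, 30.7% were past the fold toward stromal cells, with a median difference of 1.32. *Igfbp2* was not compared, with a single cell above 0.

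*Igfbp4* had the largest difference of the IGF genes (9.71 on the log2 scale, rank 14 of 11478), followed by *Igf1* (7.70, rank 60), *Igfbp6* (6.86, rank 89) and *Igfbp5* (5.71, rank 168). These 4 genes had larger differences than at least 98.5% of all genes. The receptors lay just past the fold, with 2.56 for *Igf2r* (rank 1272) and 2.14 for *Igf1r* (rank 1714). Both fell short of it with a pseudocount of 10 (1.57 and 1.23), and *Igf1r* also with CPM of recovered reads (1.74) and without cells of fewer than 1000 genes (1.96). *Igfbp3* (1.85) and *Igfbp7* (1.42) did not reach it, although *Igfbp3* did with a pseudocount of 0.1 (2.48). Without cells of fewer than 1000 genes, the difference of *Igfbp7* was 0.21. For *Igfbp7* the difference was smaller than the SD in either group (4.82 and 5.96). For the receptors, *Igfbp3* and *Igfbp5* it was likewise smaller than the stromal SD, and the groups overlapped. No member had a lower mean in stromal cells, where 9600 of the 11478 genes compared also had the higher mean.

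**Figure D3:**
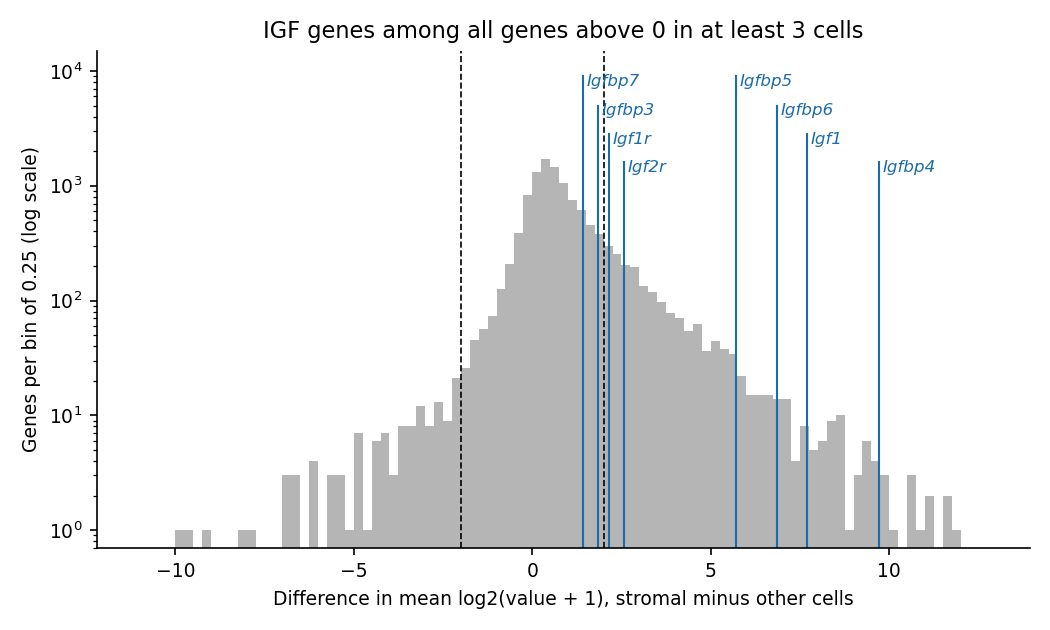
Difference in mean log2(value + 1), stromal minus other cells (x axis), for all 11478 genes compared (grey, genes per bin on a log y axis), with 8 IGF genes as blue lines and the fold of 2 in either direction as dashed lines. *Igfbp4*, *Igf1*, *Igfbp6* and *Igfbp5* lie in the right tail between 5.71 and 9.71, and *Igfbp7* at 1.42.

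Since longer transcripts give more reads in full-length libraries, levels of different genes were compared per length, as log2 of (recovered reads per kilobase of exon, scaled to the total reads of the cell in units of 1e+06, + 1). In stromal cells the mean on this scale was highest for *Igfbp6* (8.98 ± 3.76), followed by *Igfbp7* (8.20 ± 4.18) and *Igfbp4* (7.09 ± 3.04). *Igf1* (4.55 ± 2.83) and *Igfbp5* (4.14 ± 4.10) came next. *Igf2r* (1.48 ± 2.10), *Igf1r* (1.26 ± 1.84), *Igfbp3* (1.25 ± 2.65) and *Igfbp2* (0.12 ± 0.91) were lowest. Each gap to the next gene in this order was smaller than the SD of the higher gene over cells. The exon lengths used ranged from 1112 bases for *Igfbp6* to 11409 bases for *Igf1r*. Among the other cells, *Igfbp7* had the highest mean per length (7.07 ± 5.15), with a median of 1030 on the unlogged scale, compared with 1048 in stromal cells.

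Individual stromal cells expressed several of these genes together. The number of the 9 genes above 0 per cell had a median of 5 in stromal cells (range, 2 to 7) and 2 in the others (range, 1 to 5). At 100 reads the medians were 5 (range, 0 to 7) and 1 (range, 0 to 2). Over all genes, the number above 0 per cell had medians of 2813 and 1416. The part of this difference in the counts of members was not tested. For the binding proteins alone at 100 reads, 22 stromal cells held 3, 19 held 4, 4 held 5 and 1 held 6. A further 8 cells held 2, another 2 held 1, and 2 held 0. Of the other cells, 17 held 1 binding protein, 9 held 0 and 1 held 2. The binding protein with the most reads per length in a stromal cell was *Igfbp6* in 32 of 56 cells, *Igfbp7* in 20, *Igfbp4* in 2 and *Igfbp5* in 2. In all 18 other cells with a binding protein at 100 reads, it was *Igfbp7*.

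Whether the IGF genes varied together was described across the 58 stromal cells by Spearman's rho of log2(value + 1), which shares depth and genes per cell between its points. Among the 21 pairs of the 7 genes above 0 in at least 20 stromal cells, 18 had a rho smaller than 0.3 in size, and the median over pairs was 0.00. Among these 18, *Igfbp5* and *Igfbp6* had a rho of 0.29, which was 0.37 with CPM of recovered reads. *Igf1* and *Igfbp7* had the highest rho of these pairs (0.48). At 100 reads, 38 cells held both, 6 *Igf1* alone, 8 *Igfbp7* alone and 6 neither. *Igfbp7* reached that level in 46 of all 58 stromal cells (79.3%), so most cells with *Igf1* would hold it in any case. The mean of log2(value + 1) of *Igf1* was 9.27 ± 3.94 in cells with *Igfbp7* at 100 reads and 5.02 ± 4.94 in those without. Both genes also followed the number of genes per cell (rho = 0.30 for *Igf1* and 0.32 for *Igfbp7*), and the part of this in their relation was not tested.

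For *Igfbp4* and *Igfbp5* rho was 0.46, with 29 of the 31 cells that held *Igfbp5* at 100 reads also holding *Igfbp4* at that level. *Igfbp4* reached that level in 50 of all 58 stromal cells (86.2%), so most cells with *Igfbp5* would hold it in any case. The 29 cells are 58% of those with *Igfbp4*. *Igfbp5* and *Igfbp7* went in opposite directions (rho = -0.39). The mean of log2(value + 1) of *Igfbp5* was 5.57 ± 5.52 where *Igfbp7* reached 100 reads and 10.31 ± 6.05 where it did not. At that level 3 cells held neither. As *Igfbp7* reached it in 46 of the 58 stromal cells and *Igfbp5* in 31, few cells would hold neither in any case. Neither *Igfbp4* nor *Igfbp5* followed the number of genes per cell (rho = -0.01 and -0.03). Without the cell numbered 50, the values of rho for the 3 pairs were 0.46, 0.44 and -0.43. As these SDs show, cells with and without the partner overlapped widely in each pair.

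**Figure D4:**
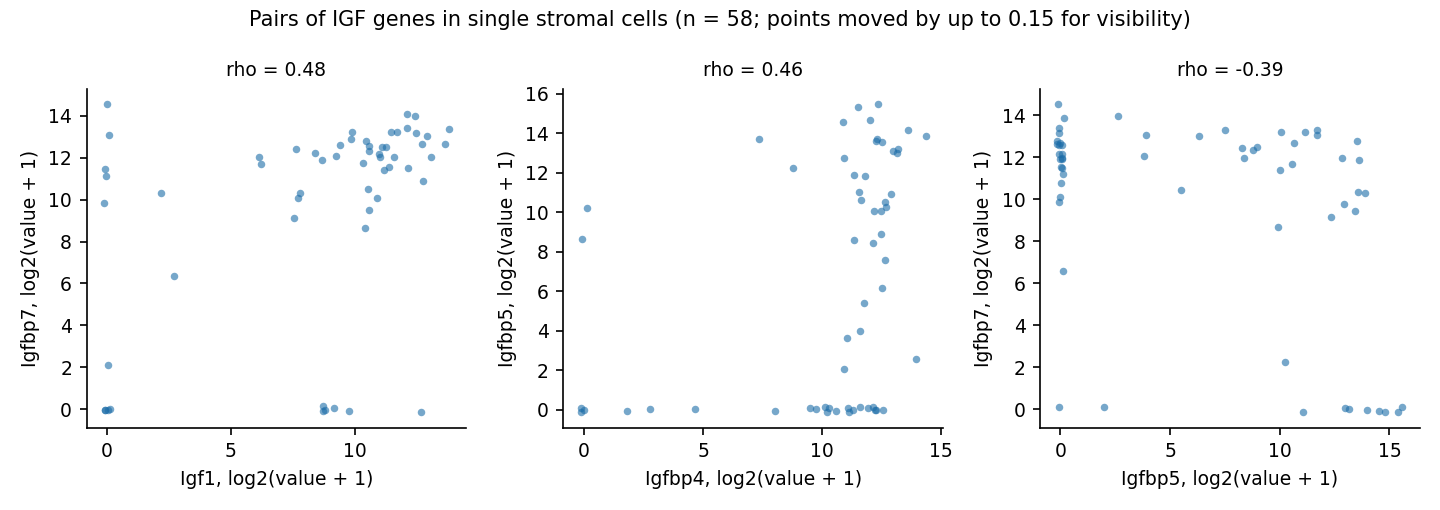
Levels of 3 pairs of IGF genes in the 58 stromal cells, as log2(deposited value + 1) on both axes, where each point is a cell moved by up to 0.15 for visibility and rho is Spearman's. Cells rich in both *Igf1* and *Igfbp7* gather at the upper right, and most cells without *Igfbp7* have high *Igfbp5*. *Igfbp5* is high mainly where *Igfbp4* is, which 50 of the 58 cells hold at 100 reads.

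The genes most like each member were sought among 2707 genes above 0 in at least 20 stromal cells, and the 3 with the highest rho across these 58 cells are given. For *Igfbp6* they were *Mfap5* (rho = 0.54), which encodes a microfibril protein, *Opcml* (0.46) and *Sema3c* (0.44), a secreted semaphorin. All 47 cells with *Igfbp6* at 100 reads also held *Mfap5* at 100 reads, as did 55 stromal cells in all. The level of *Igfbp6* fell with the number of reads per cell (rho = -0.37), and the part of this in its likeness was not tested. For *Igfbp5* they were *Thbd* (0.56), the gene of thrombomodulin, *Pi16* (0.52) and *Timp2* (0.48), an inhibitor of matrix metalloproteinases. *Thbd* and *Pi16* were each found at 100 reads in 39 stromal cells, 26 of which were among the 31 cells with *Igfbp5*. For *Igfbp4* they were *Dnajc10* (0.53), *Golt1b* (0.47) and *Igfbp5*.

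For *Igf1* the 3 genes were *Mtdh* (0.51), *Igfbp7* (0.48) and *Gas5* (0.46). For *Igfbp7* they were *Cnbd2* (0.55), *Lum* (0.53), which encodes the matrix proteoglycan lumican, and *Cd63* (0.51), a tetraspanin. *Cnbd2* reached 100 reads in 0 cells. For *Igf1r* they were *Matr3* (0.42), *Suco* (0.41) and the pseudogene *Rpl10-ps2* (0.41), and for *Igf2r* *Gm27529* (0.55), *Sec22b* (0.44) and *Tnks2* (0.42). *Rpl10-ps2* and *Gm27529* also reached 100 reads in 0 cells, and reads of a pseudogene may be shared with its parent gene. Being the highest of 2707 values for each member, these are a description of rank order alone.

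A wider list of IGF genes by role was then examined. Beside the 9 members it held 60 genes, 53 of which had a row and 48 of which met the minimum of 3 cells. Of these, 15 were past the fold toward stromal cells (31.2%), 1 toward the others and 32 neither, with a median difference of 1.08. The background of 16.4% covers all genes, and the share of stromal calls rises to 30.7% among genes above 0 in at least 10 cells. The list is thus read as counts only.

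Among proteases that cleave binding proteins, *Htra3* differed by 9.28 (above 0 in 52 stromal and 6 other cells) and *Htra1* by 7.91 (52 and 8 cells). *Pappa*, the gene of PAPP-A, was above 0 in 5 stromal cells and 0 other cells, with a difference of 0.72, and *Stc1*, whose product inhibits PAPP-A, in 10 and 2 cells. Of the surface partners of binding proteins, *Lrp1*, an endocytic receptor, differed by 8.43 (50 and 0 cells) and the integrin gene *Itgav* by 3.72 (33 and 2 cells). *Cd93*, the gene of an endothelial surface receptor that binds IGFBP7, was the gene past the fold in the opposite direction (-5.53, 2 and 16 cells).

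In the signaling arms, differences past the fold were all toward stromal cells. That is also the direction of most calls over all genes (1883, against 125 toward the others). The growth hormone receptor gene *Ghr* differed by 2.15 (14 and 1 cells), and the other 4 genes of the growth hormone arm did not reach the fold. Of the adaptors, *Irs2* differed by 4.02 (26 and 0 cells) and *Grb10*, which encodes an inhibitory adaptor, by 3.44 (27 and 2 cells), whereas *Irs1* was above 0 in 2 stromal cells alone. In the PI3K-Akt arm, 6 of 17 genes compared (35.3%) were past the fold. Among them were *Foxo1* (4.08), a transcription factor held out of the nucleus by Akt, *Rheb* (3.50), an activator of mTORC1, *Akt2* (3.37), *Pik3r1* (3.36), which encodes a regulatory subunit of PI3K, and *Eif4ebp1* (2.51), the gene of a repressor of translation that mTORC1 inactivates. In the Ras-MAPK arm, 2 of 9 genes (22.2%) were past the fold. The share toward stromal cells was 16.4% over all genes and 30.7% over genes above 0 in at least 10 cells. The insulin receptor gene *Insr*, above 0 in 7 stromal and 0 other cells, differed by 0.91.

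**Figure D5:**
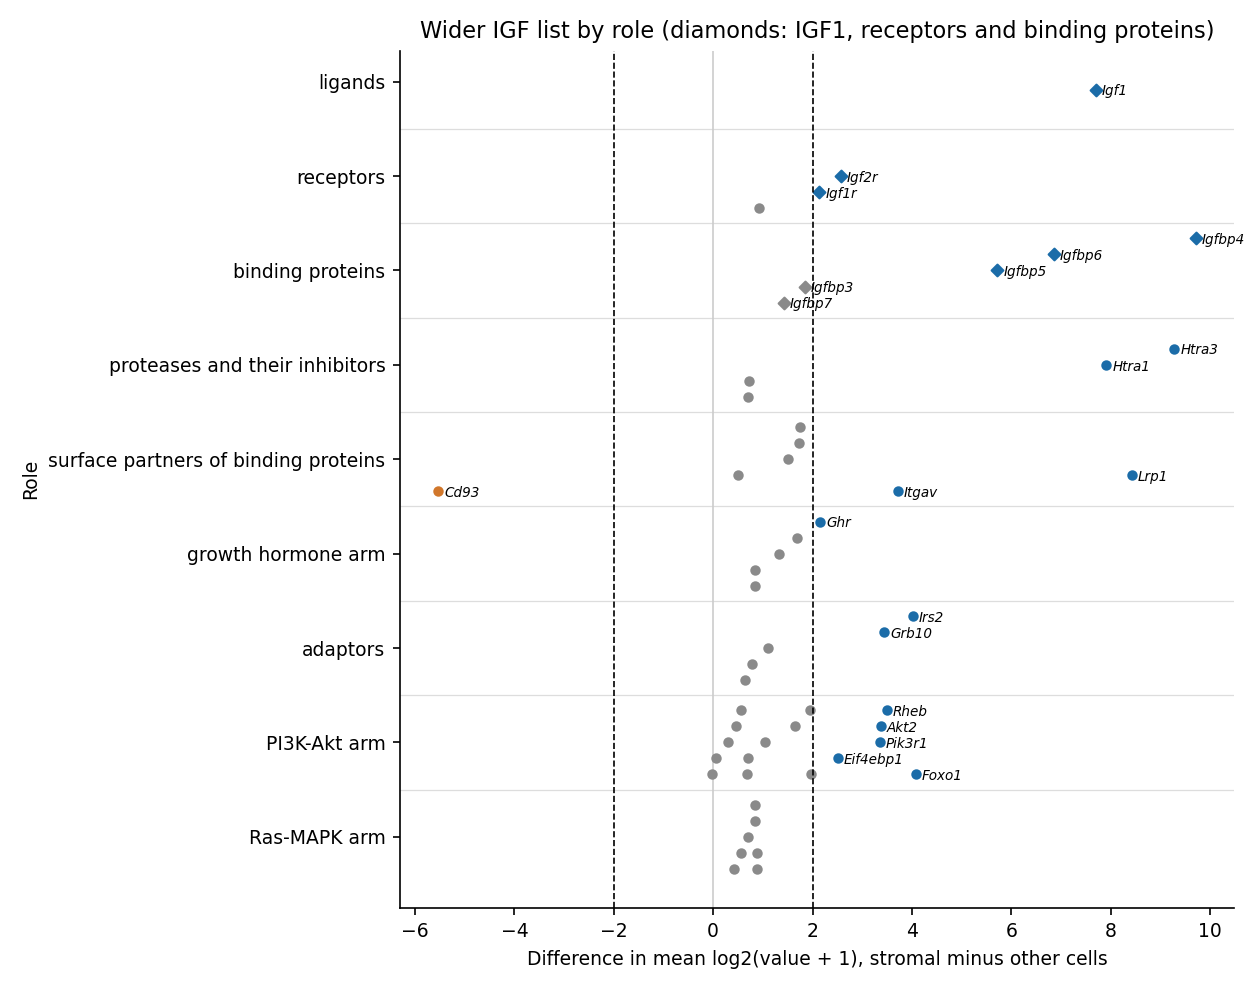
Difference in mean log2(value + 1), stromal minus other cells (x axis), for genes of the wider IGF list above 0 in at least 3 cells, in rows by role and without the few genes not reported, with diamonds for the members and dashed lines at the fold of 2 in either direction. Blue genes lie past the fold toward stromal cells, led by *Igfbp4* at 9.71 and *Htra3* at 9.28, and *Cd93* at -5.53 is the orange gene past it toward the others.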

How the data were processed

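Single primary PV-ADSCs were sequenced with SMARTseq v4, with 1 library per cell. The authors aligned reads to mm9 with HISAT2 2.0.5, sorted them with SAMtools 1.4, assembled them with StringTie 1.3.3 and applied the quality control and scaling of scater. The program that counted reads and its use of strand are not given in the sources used here. The values the authors deposited are normalized read counts, a signal that is never negative, in 1 table. Genes above 0 in fewer than 10 cells held whole numbers, and most others were whole numbers times a factor of the cell and of 1 of 13 groups of genes. Dividing by that factor gave recovered reads, and all 144272 scaled values came out whole (tolerance, 2e-08 of the value or 1e-06, whichever was larger). This step was devised after the values had been seen, and it was tested on simulated data. In 20 of 1105 pairs of a cell and a group, fewer than 10 values set the factor.

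Levels are log2(value + 1) without further scaling. Recovered reads served for depth, for detection at 10 and 100 reads and for levels per length, with exon lengths from the GENCODE M21 basic annotation. For genes at 0 in a whole group, the upper limits given are 3 cells of that group and the upper end of the exact interval. All members were named, with the 3 genes of highest Spearman's rho for each member above 0 in at least 20 stromal cells and the genes of the wider list past the fold, a few of which are not reported here. Some list genes short of it (Igf2, Pappa, Stc1, Irs1 and Insr) and markers (Pdgfra, Col1a1 and Cdh5) were added after their values were seen. The members and lists were chosen with earlier results of these data known. Alternatives were other pseudocounts, CPM of recovered reads, other Dcn thresholds, other filters, thinning to the shallowest cell, and leaving out cells. Python 3.11.15, numpy 2.4.6, pandas 2.3.3, scipy 1.17.1 and matplotlib 3.10.9 were used.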

Additional observations from a re-analysis of the deposited data

How the results depend on the processing

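All 9 members, *Igfbp2* with its single cell above 0 among them, had the higher mean in stromal cells under each of the 9 alternatives to the comparison of levels. As reported, 9600 of 11478 genes also had the higher mean there, so this direction is not particular to the members. The median difference over the members, 2.56, ranged from 1.57 with a pseudocount of 10 to 3.58 with one of 0.1. The number of members past the fold was 6 as reported, 5 with CPM or without cells of fewer than 1000 genes, 4 with a pseudocount of 10 and 7 with one of 0.1. When likeness was computed over all cells instead of stromal cells, 6 of the 21 named genes remained among the 3 highest, where rho also covers the difference between the groups. Thinning moved no share beyond its interval. Cells with few reads of a gene limit the shares of other cells, which went for *Igfbp4* from 18.5% to 0 at 10 reads and for *Igfbp5* from 22.2% to 7.41% at 10 and 0 at 100 reads. The removal of cell 50 was chosen after seeing the data. No paired analysis was possible because all cells belong to 1 group of the labels and no test was made. The spread between animals could not be measured.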
